A study of Mus musculus with 48 samples.

Results

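The genes described here are Klf2, Tsc22d3, Cebpb, Fkbp5, Dusp1, Per1, Zfp36, Klf4 and Klf6, which answer to glucocorticoids or help to keep cells at rest. They were selected by symbol with results of these libraries already known, so their levels and calls are descriptions, and all 9 were present among the 20300 genes of the table of mixed tumor cells and among the 14363 genes of the table of CD11b cells. The cells in which they were measured were chosen by UMIs of marker genes for myeloid, lymphoid, vascular and tumor cells, and no member is among those markers.

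Glucocorticoids cross the cell membrane and bind the receptor Nr3c1, which enters the nucleus and induces genes such as Tsc22d3, Fkbp5, Per1, Dusp1 and Zfp36, whose products dampen inflammatory signals or feed back on the receptor itself. Klf2 holds naive T cells out of the cell cycle and lets them leave lymphoid tissue, and in endothelium Klf2 and Klf4 are induced by blood flow. Several of these genes are also immediate early genes, which cells switch on within minutes of stress, growth factors or the enzymes used to dissociate tissue.

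The tumors came from GL261, a mouse glioma line of the C57BL/6 strain that carried either a negative control hairpin (shNC) or a hairpin against P-selectin, the product of Selp (shSELP), and the question was how loss of this adhesion molecule from tumor cells changes the cells around them. The hairpin was picked from several for its silencing, infected cells were selected with puromycin, and male C57BL/6 mice aged 6 weeks received the cells in the striatum. The mix experiment, taken on day 16 per the labels, gave 2 shNC and 2 shSELP libraries. Each was made from equal parts of cells taken by CD11b, cells taken next by CD45, and the unbound cells, which the labels call cancer cells. In the CD11b experiment, taken on day 21 per the labels, CD11b cells alone gave 1 shNC and 1 shSELP library. Each library comprised 8 sequencing entries. The methods name another day than these labels and a pool of several brains for each group, and nothing states that replicate libraries came from separate pools, so spread between libraries may be spread within a pool. Of the 8 entries of the CD11b shSELP library, 7 carry a description that names the negative control, while the titles and the column names of the deposited table name the hairpin, so every direction in that experiment depends on these being right.

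The mix libraries held 2289, 2297, 2293 and 2293 cells with 22945972, 22626413, 17398121 and 25589350 UMIs in shNC 1, shNC 2, shSELP 1 and shSELP 2, the order used for all values from the mix. The CD11b libraries held 2862 cells each, with 12628177 UMIs in shNC and 11445676 in shSELP. The paper states that equal numbers of cells were drawn at random from each group. These deposited totals may therefore not be those of the full libraries. Cells were kept if they had 500 genes or more and a mitochondrial share of UMIs up to 10%. A kept cell was gated to a class when it had at least 3 of the markers of that class and at least 2 more than of any other class. The tumor gate held 266, 183, 64 and 53 cells and the vascular gate 23, 37, 406 and 95, so both gates rest on few cells in some libraries. The myeloid gate held 1197, 1119, 1027 and 1231 cells, and the lymphoid gate 487, 537, 435 and 511. Levels are given as CPM, the UMIs of a gene scaled to all UMIs of the gated cells of a library.

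Selp itself was barely seen in tumor-gated cells, with 1, 0, 0 and 0 UMIs, where 3 UMIs would be 0.735, 0.990, 3.47 and 5.01 CPM. A knockdown was therefore not detectable at this depth. Endothelial-gated cells, which belong to the host and carry no hairpin, held 8, 12, 0 and 4 Selp UMIs in 17, 26, 313 and 67 cells.

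Klf2, a zinc finger factor of resting T cells and of endothelium under flow, stood at 3277, 2367, 4255 and 3633 CPM in vascular-gated cells. In tumor-gated cells Klf2 was at 138, 128, 203 and 284 CPM, in lymphoid-gated cells at 106, 163, 78.2 and 111 CPM, and in myeloid-gated cells at 58.7, 80.8, 168 and 64.6 CPM. Every vascular value lay far above every value of the other 3 classes, which overlapped each other. Summed over the mix, vascular-gated cells made up 6.43% of kept cells and held 50.9% of all Klf2 UMIs, shares that rest on shSELP 1, since vascular-gated cells were 1.05%, 1.70%, 18.5% and 4.37% of kept cells by library. With edgeR, libraries as blocks, Klf2 was lower in myeloid-gated than in vascular-gated cells by a log2 fold change of -4.40 ± 0.32 (SE, 4 libraries a class, adjusted p = 1.76e-09), and the difference was -4.34 ± 0.32 between lymphoid and vascular (adjusted p = 2.7e-09) and 4.10 ± 0.32 between vascular and tumor (adjusted p = 1.26e-08). Between tumor, lymphoid and myeloid cells Klf2 was not called (adjusted p from 0.364 to 0.89 in edgeR), but it was called lower in myeloid than in tumor cells without shSELP 1 (-0.58, adjusted p = 0.0446) and without TMM scaling (-1.04, adjusted p = 0.00525).

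**Figure D1:**
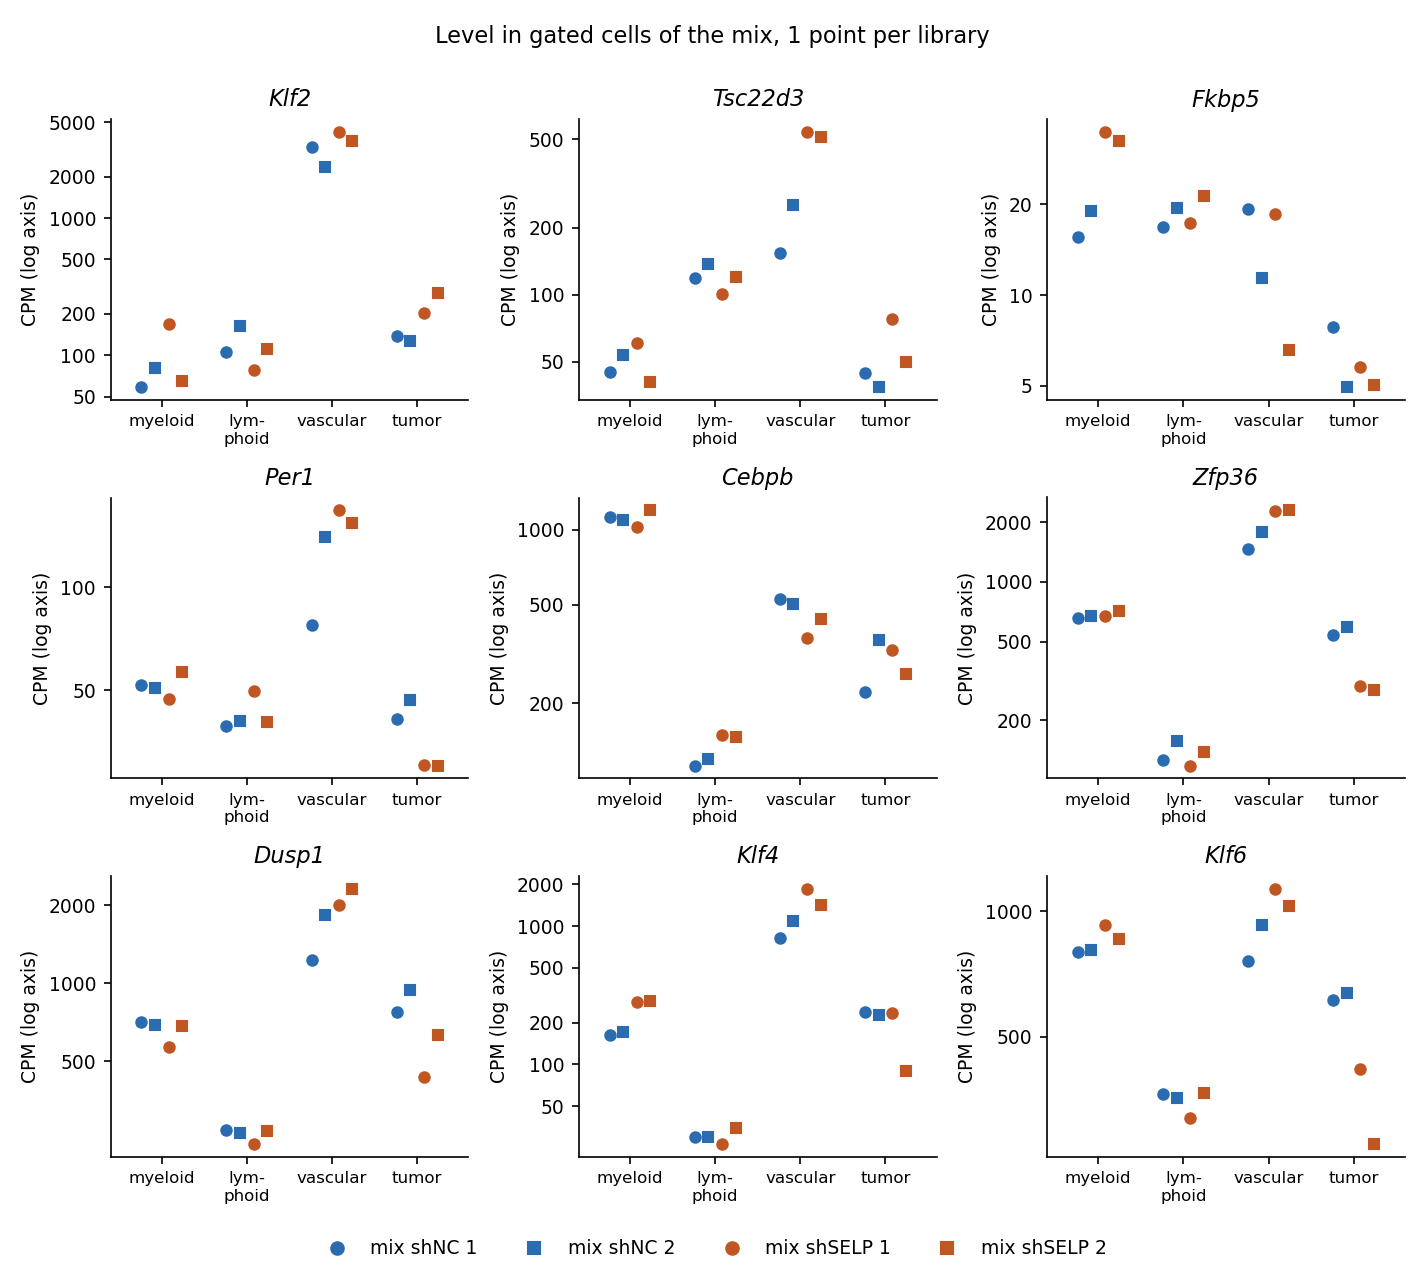
Level of each of the 9 genes (CPM, log axis, scaled to each gene) in myeloid, lymphoid, vascular and tumor cells gated on markers in the mix, with 1 point for each library, shNC in blue and shSELP in orange. Klf2 lies between 2367 and 4255 CPM in vascular-gated cells, above every other point, and Cebpb between 1023 and 1197 CPM in myeloid-gated cells.

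Within classes, sub-gates on finer markers set apart where Klf2 was high. Endothelial-gated cells reached 3410, 3296, 4792 and 4615 CPM of Klf2, and mural-gated cells (4, 10, 78 and 28 cells) 1935, 659, 1236 and 1531 CPM. Among lymphoid cells Klf2 was at 1487, 739, 1065 and 832 CPM in NK-gated cells (15, 49, 13 and 33 cells) and at 78.6, 105, 48.6 and 67.0 CPM in T-gated cells. The NK and T values did not overlap in these 4 libraries, and the difference was not tested because some NK gates held under 20 cells. Among myeloid cells, Klf2 was at 294, 208, 370 and 211 CPM in microglia-gated cells and at 37.2, 53.5, 68.4 and 38.8 CPM in macrophage-gated cells, again with no overlap and with no test of that difference. Neutrophil-gated cells (6, 8, 24 and 14 cells) had a mean of 427.5 CPM of Klf2. Their libraries ran from 246 to 702 CPM, which overlapped the microglia values.

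Tsc22d3, a leucine zipper protein (also called GILZ) that binds and restrains inflammatory transcription factors, stood at 155, 254, 539 and 511 CPM in vascular-gated cells and at 119, 137, 101 and 120 CPM in lymphoid-gated cells. It was at 44.9, 53.6, 60.8 and 40.6 CPM in myeloid-gated and at 44.6, 38.6, 77.6 and 50.1 CPM in tumor-gated cells. The lowest vascular library was above the highest lymphoid one, every lymphoid library was above every myeloid and tumor one, and the last classes overlapped. The fitted differences of Tsc22d3 were -0.91 ± 0.24 between myeloid and lymphoid (SE, 4 libraries a class, adjusted p = 0.00338 in edgeR) and -1.15 ± 0.26 between lymphoid and vascular (adjusted p = 0.000888). NK-gated cells held 475, 300, 310 and 247 CPM of Tsc22d3, above the 113, 116, 92.8 and 112 CPM of T-gated cells in each library.

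Fkbp5, a cochaperone that lowers the affinity of the glucocorticoid receptor for hormone and is itself induced by it, was low everywhere. It was at 15.6, 19.1, 34.9 and 32.6 CPM in myeloid-gated cells, 16.8, 19.4, 17.3 and 21.4 in lymphoid, 19.3, 11.4, 18.6 and 6.55 in vascular and 7.84, 4.95, 5.79 and 5.01 in tumor. The vascular and tumor values rest on 43 and 55 Fkbp5 UMIs over all libraries of the mix, so they are near the floor. Myeloid and lymphoid values overlapped each other and lay above all tumor values. Per1, a repressor of the circadian clock that glucocorticoids also induce, was at 77.3, 140, 168 and 154 CPM in vascular-gated cells, above all other classes. Per1 was at 51.6, 50.7, 47.0 and 56.4 CPM in myeloid-gated, 39.2, 40.6, 49.7 and 40.3 in lymphoid-gated and 41.2, 46.9, 30.1 and 30.1 in tumor-gated cells. Myeloid values lay just above tumor values, and lymphoid values overlapped both.

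Dusp1, a phosphatase that switches off p38 and JNK kinases, was at 1230, 1836, 2010 and 2312 CPM in vascular-gated, 772, 942, 435 and 630 in tumor-gated, 708, 688, 569 and 687 in myeloid-gated and 271, 265, 240 and 270 in lymphoid-gated cells. Lymphoid values were the lowest in each library and vascular values the highest, and tumor and myeloid values overlapped. Zfp36, also called tristetraprolin, which binds AU-rich messenger RNAs of cytokines and speeds their decay, was at 1468, 1795, 2295 and 2303 CPM in vascular-gated and 658, 672, 669 and 715 CPM in myeloid-gated cells. Zfp36 was at 538, 595, 299 and 286 CPM in tumor-gated and 126, 157, 118 and 138 CPM in lymphoid-gated cells, so that its 4 classes did not overlap in any library.

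Cebpb, a leucine zipper factor that drives myeloid differentiation and inflammatory genes, was the member most tied to myeloid cells. It was at 1129, 1095, 1023 and 1197 CPM in myeloid-gated, 528, 504, 366 and 437 in vascular-gated, 222, 360, 328 and 262 in tumor-gated and 113, 120, 150 and 146 in lymphoid-gated cells. Myeloid-gated cells held 88.1% of all Cebpb UMIs and 62.9% of all UMIs. The fitted difference of Cebpb between myeloid and lymphoid cells was 3.46 ± 0.17 (SE, 4 libraries a class, adjusted p = 1.11e-11 in edgeR). Within vascular cells Cebpb was at 1352, 1240, 1382 and 1197 CPM in mural-gated and at 174, 125, 175 and 81.6 CPM in endothelial-gated cells, a difference that was not tested.

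Klf4, a zinc finger factor of monocyte differentiation and of resting endothelium, was at 824, 1094, 1860 and 1409 CPM in vascular-gated, 162, 170, 281 and 288 in myeloid-gated, 238, 226, 236 and 90.2 in tumor-gated and 30.0, 29.7, 26.6 and 34.5 in lymphoid-gated cells. Klf6, a relative that responds to injury and inflammation, was at 760, 928, 1131 and 1031 CPM in vascular-gated, 797, 807, 928 and 856 in myeloid-gated, 614, 637, 419 and 277 in tumor-gated and 365, 358, 319 and 368 in lymphoid-gated cells. For both genes the lymphoid class was separate from the vascular and myeloid ones. Klf6 overlapped between vascular and myeloid cells, and Klf4 between myeloid and tumor cells.

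Across the 6 pairs of classes most members were called, as were most genes. In edgeR, 8 of 9 members differed between myeloid and lymphoid cells where 57.5% of 12509 genes did, 9 between myeloid and vascular (60.8%), 8 between myeloid and tumor (68.6%), 9 between lymphoid and vascular (60.7%), 6 between lymphoid and tumor (65.5%) and 8 between vascular and tumor (52.7%). Against vascular cells 8 of the 9 members were lower in lymphoid cells, and Fkbp5 alone was higher there. This call of Fkbp5 held in 4 of 9 alternatives. It was lost without shNC 2 (0.86, adjusted p = 0.0779 in edgeR), shSELP 2 (0.69, 0.128), TMM scaling (0.54, 0.195) or the library block (0.8, 0.0613). DESeq2 called 7, 8, 7, 8, 6 and 8 members in that order, without Fkbp5 between myeloid and lymphoid cells (0.68, adjusted p = 0.06 in DESeq2) and between lymphoid and vascular (0.0605), Klf6 between myeloid and vascular (0.0768) and Tsc22d3 between myeloid and tumor (0.0713). Between myeloid and tumor cells the call of Tsc22d3 was also lost without shNC 2 (0.53) and with a gate margin of 3 (0.61). Those of Dusp1 (0.60) and Klf4 (0.45) were lost without shSELP 2. Between myeloid and vascular cells those of Dusp1 (-0.46), Per1 (-0.41) and Zfp36 (-0.54) were lost without shSELP 1, that of Dusp1 (-0.57) without shSELP 2 and that of Klf6 (0.53) without shNC 1, and between vascular and tumor cells that of Cebpb without shNC 1 (0.39) or shSELP 2 (0.48). The TMM scaling of edgeR moved these fitted differences from the plain ratio of CPM by 0.38 on the log2 scale between myeloid and lymphoid cells, 0.86 between myeloid and vascular, 0.75 between myeloid and tumor, 0.48 between lymphoid and vascular, 0.37 between lymphoid and tumor and -0.11 between vascular and tumor. Without it, an alternative chosen after seeing the data, Tsc22d3 (0.70 with it, -0.04 without) and Dusp1 (0.68 and -0.06) changed direction between myeloid and tumor cells, Klf6 (0.64 and -0.21) did so between myeloid and vascular cells, and none of these was called. Klf4 (0.84 and 0.10, adjusted p = 0.726 in edgeR) and Per1 (1.12 and 0.38, 0.0572) also lost their calls between myeloid and tumor cells, where 5 of 9 members were called, and Fkbp5 (0.75 and 0.37, 0.127) and Per1 (0.67 and 0.29, 0.131) lost theirs between myeloid and lymphoid cells.

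Immediate early and dissociation genes, a list of 14 that includes Fos, Junb and Atf3, were also highest where most members were high. Their summed level was 26026, 24646, 37897 and 37104 CPM in vascular-gated, 13675, 15158, 10617 and 10543 in tumor-gated, 5120, 5095, 7235 and 5936 in myeloid-gated and 3524, 3650, 4005 and 4225 in lymphoid-gated cells, and its part in the members' levels was not tested. All 14 were called higher in vascular than in tumor cells, among them Hspa1a with a log2 fold change of 7.13 and Fosb with 2.18. Of the 12 quiescence genes and Klf2 targets, 9 were called higher and 0 lower in vascular than in tumor cells, where S1pr1, the receptor that lets lymphocytes leave tissue, differed by 6.29, the anticoagulant receptor Thbd by 9.80 and the nitric oxide synthase Nos3 by 4.20. Of the glucocorticoid pathway, 10 were called higher and 2 lower of 18 tested in that pair, and of the family relatives 11 higher and 3 lower of 15, where 3110 were higher and 3480 lower of all 12509 genes.

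Between the 16 columns of library and class, which share libraries and differ in depth, the levels of Zfp36 and Klf4 had a Pearson r of 0.972 on log2 CPM, Zfp36 and Dusp1 0.969, and Klf2 and Tsc22d3 0.830. Fkbp5 went with none of the others, with r from -0.262 against Dusp1 to 0.292 against Cebpb. Among the 3079 genes that averaged 50 CPM or more, those whose pattern was most like Klf2 were Sptbn1 (0.985), Heg1 (0.983) and Ccdc141 (0.982). Cebpb was most like Lamp1 (0.981), Nfe2l2 (0.977) and Tgm2 (0.973), and Tsc22d3 most like Cdk11b (0.968), Esyt2 (0.964) and Zfp148 (0.964). The nearest for Dusp1 were Rbms1 (0.966), Plk2 (0.955) and Dusp3 (0.951), and for Klf4 Dusp3 (0.983), Leprot (0.968) and Plk2 (0.968). The nearest for Zfp36 were Clic4 (0.97), Stx12 (0.963) and Csrnp1 (0.962), and for Per1 Arid5b (0.98), 8430408G22Rik (0.959) and Lsr (0.958). Klf6 lay nearest Zfp36l1 (0.951), Baz2b (0.921) and Rapgef2 (0.918), and Fkbp5 nearest Zc3h12a (0.878), Vsir (0.870) and Tmed5 (0.869).

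The comparison of shSELP with shNC asked whether these genes shift in each cell class when the tumor line carries the hairpin against Selp. Klf4 was at 179, 202, 324 and 325 CPM in macrophage-gated cells (771, 761, 497 and 843 cells). Both shSELP libraries lay above both shNC libraries. Klf4 rose with a log2 fold change of 0.83 ± 0.10 (SE, 2 libraries a group, adjusted p = 0.0229 in edgeR), higher in 2 of 2 shSELP libraries, and its adjusted p was 0.118 without shNC 1 and 0.0575 without TMM scaling, an alternative chosen after seeing the data. Over 12 alternatives it ran from 2.16e-09 to 0.118. Fkbp5 in the same cells was at 13.4, 17.8, 28.3 and 32.3 CPM, with no overlap and a log2 fold change of 1.03 ± 0.15 that missed the threshold (adjusted p = 0.0538 in edgeR, 0.00735 in DESeq2). Leaving out shNC 2 or shSELP 1 brought Fkbp5 past it (adjusted p = 0.0241 and 0.0431 in edgeR), and over its alternatives the adjusted p of Fkbp5 ran from 1.07e-08 to 0.195. Klf4 was 1 of 9 members called in macrophages, where 0.223% of 10777 genes were called. In this comparison 0 of the 8 cycling genes were above 0, at a median of -0.91 on the log2 scale, with Pclaf (-1.41) and Stmn1 (-1.19) called lower. Among macrophage-gated cells not gated as cycling Klf4 was at 193, 208, 318 and 355 CPM, and among cycling ones at 153, 190, 343 and 277 CPM. These values come from the same 4 libraries, and the part of cycling in the level of Klf4 was not tested. Tsc22d3 was at 41.6, 55.6, 39.9 and 33.9 CPM, lower in both shSELP libraries, and Klf6 at 826, 874, 990 and 876 CPM, higher in both by little. Klf2, Cebpb, Dusp1, Per1 and Zfp36 overlapped between groups, with Cebpb at 1285, 1298, 1158 and 1287 CPM.

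**Figure D2:**
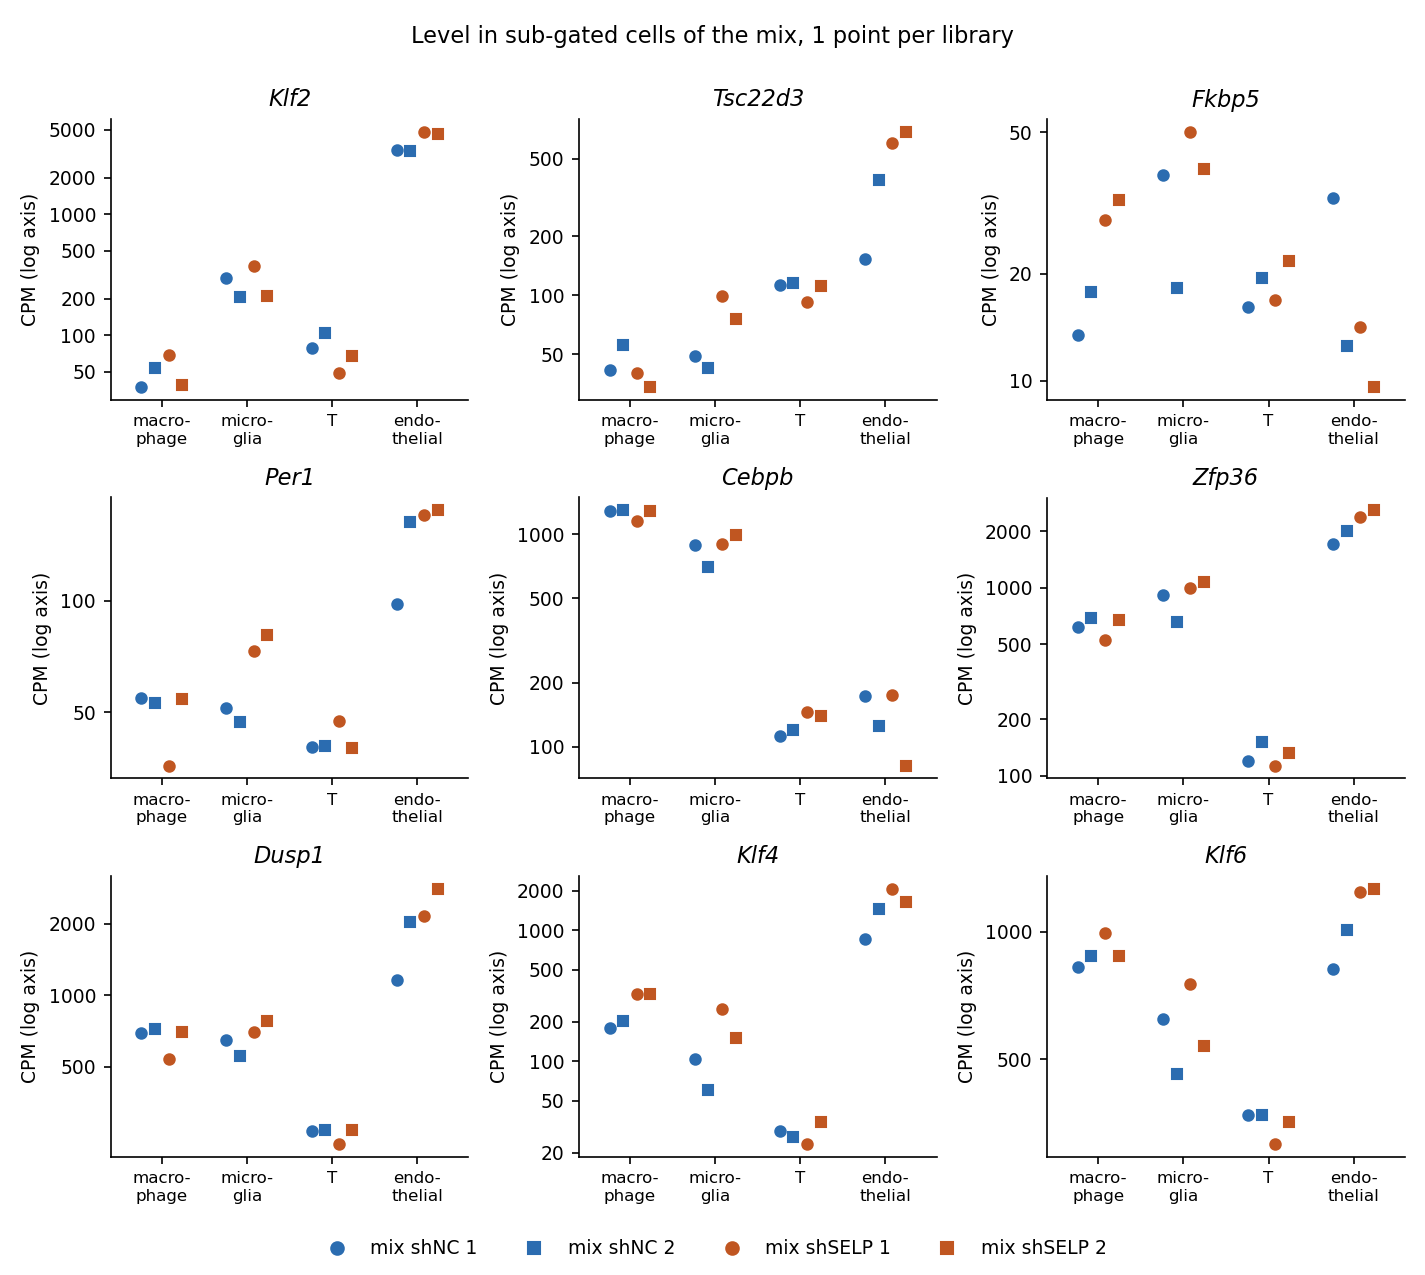
Level of each of the 9 genes (CPM, log axis, scaled to each gene) in macrophage, microglia, T and endothelial cells sub-gated on markers in the mix, with 1 point for each library. Klf4 lies at 179 and 202 CPM in shNC and at 324 and 325 CPM in shSELP in macrophage-gated cells, and Tsc22d3 is higher in both shSELP libraries in microglia-gated but not in macrophage-gated cells.

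Microglia-gated cells (90, 121, 302 and 148 cells) showed another order. Tsc22d3 was at 48.9, 42.4, 98.7 and 75.2 CPM, and both shSELP libraries were above both shNC libraries. Its log2 fold change was 0.90 ± 0.20 (SE, 2 libraries a group) and missed the threshold (adjusted p = 0.07 in edgeR), and Tsc22d3 passed it without shNC 1 (0.0281) and without shSELP 2 (0.000131), with a range from 0.000131 to 0.439 over the alternatives. Klf4 was at 103, 60.1, 251 and 150 CPM in microglia-gated cells, also with no overlap, and missed it as well (log2 fold change 1.29 ± 0.28, adjusted p = 0.0694 in edgeR), and it passed without shNC 1 (0.000224), shSELP 1 (0.00334) or shSELP 2 (1.28e-11), with 0.371 as the highest adjusted p of an alternative. Fkbp5, at 37.8, 18.3, 50.2 and 39.4 CPM, passed without shNC 1 (0.0166) and without shSELP 2 (0.0274), with 0.92 as the highest. In edgeR 0 of 9 members were called in microglia, against 0.36% of 8343 genes, and 0 members were called by DESeq2. The unadjusted p in edgeR was under 0.05 for 4 members and 1223 genes. Of 9 quiescence genes Il7r was called, higher by 2.70 on the log2 scale. Per1, at 51.1, 47.1, 72.9 and 80.6 CPM, and Zfp36, at 914, 658, 994 and 1071 CPM, were each higher in both shSELP libraries.

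The response of Tsc22d3 differed between microglia and macrophages when that difference itself was tested. The shSELP libraries were higher in microglia and lower than both shNC libraries in macrophages, and the difference of the log2 fold changes was 1.23 ± 0.22 (SE, adjusted p = 0.0162 in edgeR). It was the 1 member called of 9, against 0.527% of 10623 genes. DESeq2 gave a difference of 1.18 and no adjusted p for Tsc22d3 (NA). Without shNC 1, 3 members were called, and without shSELP 2, 2. The call of Tsc22d3 was lost without shNC 2, with a difference of 0.87 and an adjusted p of 0.56, and with cells thinned to equal depth, with 1.07 and 0.48, and over the alternatives its adjusted p ran from 9.34e-06 to 0.56. Immediate early genes summed to 7946, 5779, 11754 and 9899 CPM in microglia-gated and 4923, 5154, 5450 and 5651 CPM in macrophage-gated cells, all 14 with a UMI and Junb the most abundant, so they moved with Tsc22d3 in microglia, and their part in it was not tested. Of that list only Jund was called in microglia, with a log2 fold change of 1.10, and only Ier3 in macrophages, with 0.73.

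In all myeloid-gated cells edgeR called 0 of 9 members, against 0% of 11759 genes, while the unadjusted p was under 0.05 for 2 members and 1156 genes, and 2 members and 61 genes were called by DESeq2. Klf4, at 162, 170, 281 and 288 CPM, and Fkbp5, at 15.6, 19.1, 34.9 and 32.6 CPM, were the members at an unadjusted p under 0.05 and did not overlap between groups (log2 fold changes 0.79 ± 0.10 and 0.97 ± 0.13, SE, 2 libraries a group). Without shSELP 2, 3 members were called, Klf2 (adjusted p = 0.0142 in edgeR), Fkbp5 (0.0203) and Klf4 (0.0254), and the adjusted p of each reached 1 under another alternative. Klf2 in myeloid-gated cells stood apart in shSELP 1 alone, at 168 CPM. That library also had the highest summed level of the 8 microglia markers, at 1178, 1527, 2874 and 1162 CPM with none at 0, and of the 8 neutrophil markers, at 428, 368, 2414 and 830 CPM, led by Trem1 or S100a8. The part of these cells in the myeloid level of Klf2 was not tested. Klf2 was also highest in shSELP 1 within macrophage-gated cells, at 37.2, 53.5, 68.4 and 38.8 CPM, and within microglia-gated cells, at 294, 208, 370 and 211 CPM, and the groups overlapped in both.

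In T-gated cells (446, 446, 411 and 460 cells) Klf2 was at 78.6, 105, 48.6 and 67.0 CPM. Both shSELP libraries were below both shNC libraries, with a log2 fold change of -0.65 ± 0.17 (SE, 2 libraries a group) that missed the threshold (adjusted p = 0.266 in edgeR). Klf2 passed it without shNC 1 (-0.84, adjusted p = 0.0154) and with cells thinned to equal depth (-1.08, adjusted p = 0.00559), and reached an adjusted p of 0.862 under another alternative, while on leaving out each library its log2 fold change ran from -0.88 (without shSELP 2) to -0.41 (without shNC 2). Cebpb was at 112, 119, 146 and 140 CPM in the same cells, higher in both shSELP libraries. In edgeR 0 of 9 members were called in T-gated cells, against 0.0409% of 9770 genes, and 0 members were called by DESeq2. The unadjusted p in edgeR was under 0.05 for 2 members and 944 genes. In all lymphoid-gated cells 0 of 9 were called, against 0.0796% of 10047 genes, and 0 members were called by DESeq2. Again 2 members had an unadjusted p under 0.05 in edgeR, as did 1022 genes. There Klf2, at 106, 163, 78.2 and 111 CPM, overlapped between groups, with a log2 fold change of -0.51 (adjusted p = 0.442 in edgeR). Klf2 was called without shNC 1 (-0.78, adjusted p = 0.000215, up to 0.986 under other alternatives) and was at -0.15 without shNC 2. In these cells the 7 NK markers summed to 226, 425, 196 and 309 CPM, led by Klre1 with none at 0, highest where Klf2 was highest, while their part in it was not tested. The difference of response between lymphoid and myeloid cells was called for 0 of 9 members in edgeR, against 0.0165% of 12114 genes, and for 0 in DESeq2. Its unadjusted p in edgeR was under 0.05 for 3 members and 634 genes. For Klf2 that difference was -1.06 (adjusted p = 0.911 in edgeR). It passed without shNC 1 (-1.18), shNC 2 (-0.92) or shSELP 2 (-1.99), and without shSELP 1 it was -0.22.

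Zfp36 in tumor-gated cells was at 538, 595, 299 and 286 CPM. Each shSELP library was under each shNC library. Zfp36 fell with a log2 fold change of -1.0 ± 0.17 (SE, 2 libraries a group, adjusted p = 0.00951 in edgeR), lower in 2 of 2 shSELP libraries. It was the 1 member called of 9, against 3.13% of 10157 genes. The call was lost without shSELP 1 (adjusted p = 0.158), without shSELP 2 (adjusted p = 0.15) and with a gate that asked for a margin of 3 markers (adjusted p = 0.0758), at log2 fold changes of -1.05, -0.97 and -0.87. Over all alternatives the adjusted p of Zfp36 ran from 4.82e-06 to 0.158. DESeq2 called 2 members, and 4 were called without shNC 1 or without shNC 2, while over all genes edgeR called 318, DESeq2 252, and leaving out a library 75 (without shSELP 1) to 782 (without shNC 2).

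Other members in tumor-gated cells were not called. Klf6 was at 614, 637, 419 and 277 CPM and Dusp1 at 772, 942, 435 and 630 CPM, both lower in each shSELP library (log2 fold changes -0.88 ± 0.21 and -0.74 ± 0.21, adjusted p = 0.0545 and 0.0998 in edgeR). Klf2 went the other way, at 138, 128, 203 and 284 CPM (0.81 ± 0.20, adjusted p = 0.0584 in edgeR). Without shNC 1 and without shNC 2 the adjusted p was 0.00122 and 0.000607 for Klf6, 0.000997 and 0.027 for Dusp1, and 0.0164 and 0.0395 for Klf2, each past the threshold in edgeR. The highest adjusted p under an alternative was 0.336 for Klf6, 0.498 for Dusp1 and 0.335 for Klf2. Tsc22d3, at 44.6, 38.6, 77.6 and 50.1 CPM, was also higher in both shSELP libraries (0.59, from 0.20 without shSELP 1 to 0.85 without shSELP 2). Per1, at 41.2, 46.9, 30.1 and 30.1 CPM, was lower in both (-0.59). In edgeR 6 of 9 members had an unadjusted p under 0.05, as did 1738 of 10157 genes. Klf4 overlapped between groups, at 238, 226, 236 and 90.2 CPM. Of the listed genes in tumor-gated cells, the mTOR inhibitor Ddit4 fell by 1.26 and the receptor kinase inhibitor Errfi1 by 0.96 on the log2 scale among 12 tested of the glucocorticoid pathway, and Atf3 fell by 1.19 and the cytokine signal inhibitor Socs3 by 0.94 among 13 immediate early genes. S1pr1 and the antiproliferative gene Btg2 were the 2 of 8 quiescence genes called higher, by 4.38 and 0.75. Immediate early genes summed to 13675, 15158, 10617 and 10543 CPM, moving with Zfp36, and mitochondrial UMIs were a median of 2.52%, 2.19%, 1.73% and 0.998% of a tumor-gated cell, while the part of either in the result was not tested. The 12 vascular markers summed to 37.7, 23.8, 56.7 and 10.0 CPM in tumor-gated cells, with 8, 9, 6 and 4 of them seen, led by Flt1 except in shSELP 1, where Rgs5 led, and with Cdh5 at 0 in each library.

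Vascular-gated cells held too few cells in shNC, 23 and 37, for firm values. Tsc22d3 was at 155, 254, 539 and 511 CPM there, higher in both shSELP libraries (log2 fold change 1.29 ± 0.26, SE, 2 libraries a group, adjusted p = 0.0994 in edgeR). Of the 9 members, 8 passed the filter on low counts, which left out Fkbp5. In edgeR 0 members were called, against 0.0635% of 6295 genes, and 1 was called by DESeq2. The unadjusted p in edgeR was under 0.05 for 4 members and 1046 genes. Klf2, Dusp1, Per1, Zfp36, Klf4 and Klf6 were also higher in each shSELP library and Cebpb was lower. The share of all genes without overlap between groups was not counted. The 6 endothelial markers summed to 6420, 6134, 9245 and 8125 CPM and the immediate early genes to 26026, 24646, 37897 and 37104 CPM, all of both lists seen in each library with Cldn5 or Flt1 and Fos or Jun on top, so both moved with these members, and their part was not tested.

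Cycling cells, those with at least 2 of 8 cycling genes, were compared with the other cells of the same gate and library, since Klf2 and its relatives are known as brakes on division. Klf2 in lymphoid-gated cells was at 51.2, 54.1, 37.2 and 60.7 CPM in cycling cells and at 183, 280, 97.5 and 160 CPM in the others. Every cycling value lay below every other value. Klf2 was lower in cycling cells with a log2 fold change of -1.80 ± 0.14 (SE, 4 libraries, adjusted p = 2e-06 in edgeR), in 4 of 4 libraries.

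**Figure D3:**
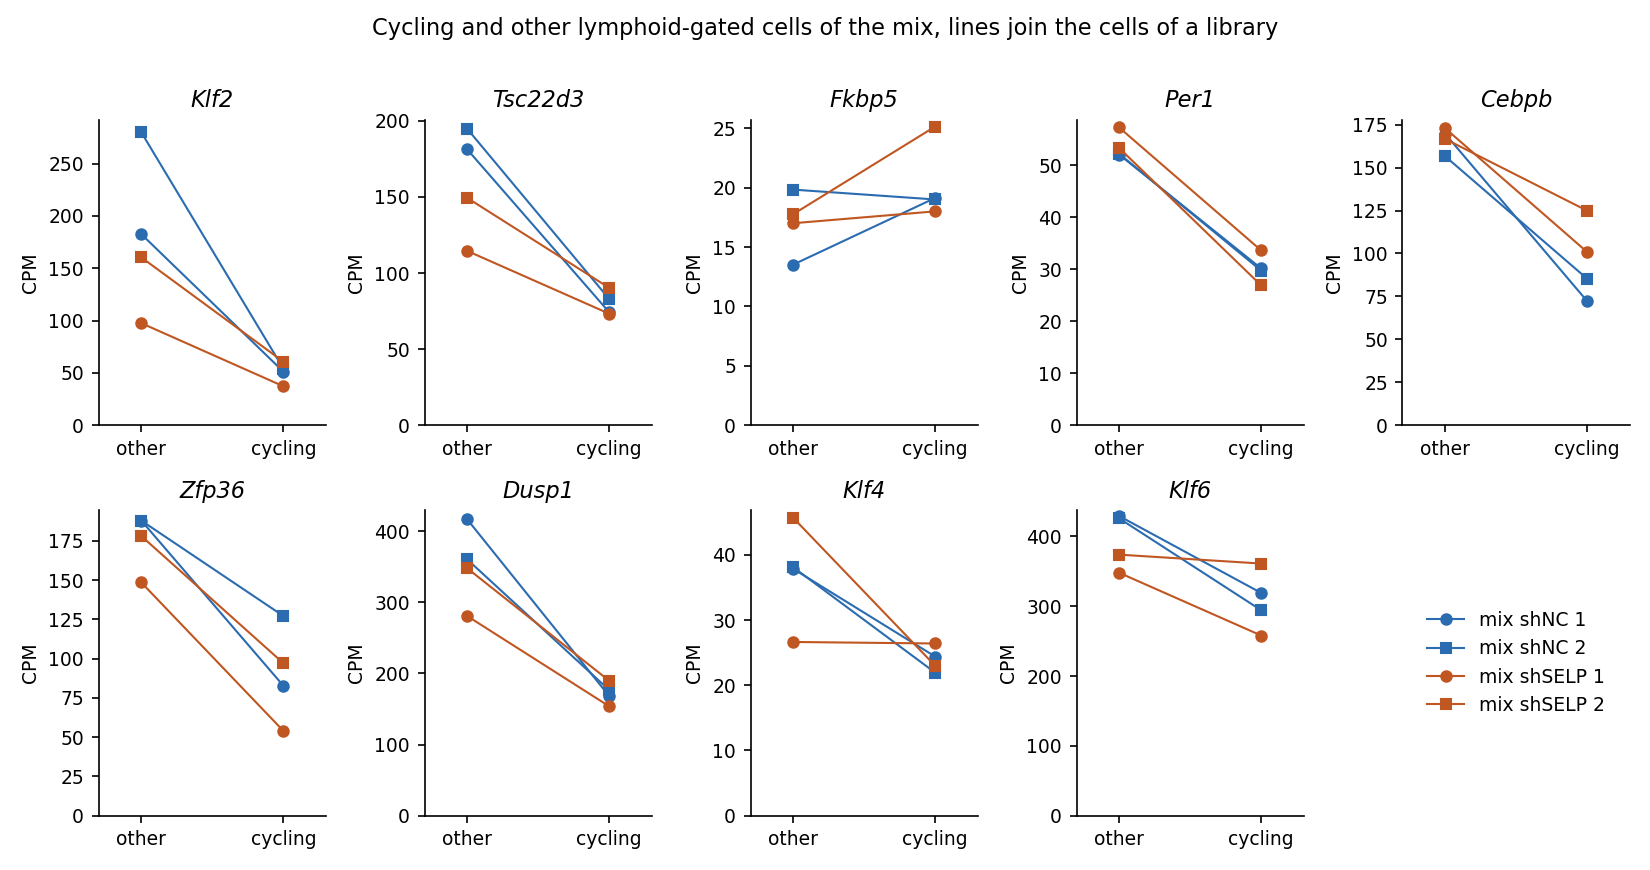
Level of each of the 9 genes (CPM, linear axis from 0) in cycling and other lymphoid-gated cells of the mix, with a line for each library, shNC in blue and shSELP in orange. Klf2 drops in each library, from between 97.5 and 280 CPM to between 37.2 and 60.7 CPM, and Fkbp5 shows no common direction.

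Most other members were also lower in cycling lymphoid cells. Tsc22d3 was at 74.2, 82.8, 73.2 and 90.2 CPM in cycling and 181, 195, 115 and 149 CPM in other cells, and Dusp1 at 168, 176, 154 and 189 CPM against 416, 360, 281 and 348 CPM, both with no overlap. Their log2 fold changes were -1.0 ± 0.11 and -1.04 ± 0.09 (SE, 4 libraries, adjusted p = 3.94e-05 and 4.85e-06 in edgeR). Zfp36 (-0.98), Per1 (-0.86), Cebpb (-0.82), Klf4 (-0.69) and Klf6 (-0.37) were called lower too, and Klf4 in shSELP 1 was nearly level, at 26.4 CPM in cycling and 26.6 CPM in other cells. Klf4 was not called without shSELP 2 (-0.57, adjusted p = 0.0573 in edgeR) or by DESeq2 (-0.66, adjusted p = 0.0813 in DESeq2). Its adjusted p ran from 0.000395 to 0.263 over the alternatives. Fkbp5 was not called, at 19.1, 19, 18 and 25.2 CPM in cycling and 13.5, 19.8, 17.0 and 17.8 CPM in other cells. In all, 8 of 9 members were called lower, against 31.5% of 8699 genes called in either direction. Cycling cells held more UMIs, a median of 11104.5 against 4070 in shNC 1, and with cells thinned to equal depth Klf2 was at a log2 fold change of -1.46, Klf4 was no longer called (-0.48, adjusted p = 0.263 in edgeR) and Fkbp5 was called higher in cycling cells (1.10, adjusted p = 0.0164). Within T-gated cells alone, an alternative chosen after seeing the data, the value for Klf2 was -1.45 and 8 members were called.

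Among all genes tested for cycling in lymphoid cells 1460 were called higher and 1276 lower of 8699. Of 10 quiescence genes and Klf2 targets tested, 8 were called lower in cycling cells and 0 higher, with a median log2 fold change of -0.77 where the median of all genes was -0.01. S1pr1 was lower by -1.37, the antiproliferative genes Btg2 by -1.01 and Btg1 by -0.94, and Foxp1, which keeps naive T cells at rest, by -0.77. Of 15 genes of the glucocorticoid pathway 6 were lower, among them Cxcr4 (-1.26), Errfi1 (-0.84) and the receptor Nr3c1 (-0.78), and 1 was higher, the receptor cochaperone Fkbp4 (0.57). Of 14 family relatives 8 were lower, among them Tsc22d1 (-1.87), Klf3 (-1.81), Dusp2 (-0.90) and Zfp36l1 (-0.74), and 1 was higher. Of 14 immediate early genes 10 were lower and 0 higher, with Socs3 at -1.30, Fos at -1.14, Atf3 at -0.89 and Jun at -0.75, and their part in the members' levels was not tested.

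In myeloid cells the same comparison gave these values, and its difference from lymphoid cells was not tested. Cebpb was at 927, 887, 870 and 1069 CPM in cycling and 1252, 1222, 1075 and 1275 CPM in other myeloid-gated cells, lower in each library (log2 fold change -0.39 ± 0.05, SE, 4 libraries, adjusted p = 0.000456 in edgeR). In all, 7 of 9 members were called lower, against 10.6% of 10712 genes (588 higher and 543 lower). The log2 fold changes of those members ran from -0.42 for Tsc22d3 to -0.18 for Klf6. The call of Klf6 (adjusted p = 0.0479 in edgeR) held in 3 of 10 alternatives, that of Tsc22d3 in 7, and the Klf6 call was lost in DESeq2 (0.0508), with thinned cells (0.0952), without TMM scaling (0.0648), within macrophage-gated cells alone (0.136) and without shNC 1 (0.123), shNC 2 (0.174) or shSELP 1 (0.175). Klf2 was at 38.8, 84.5, 130 and 53.6 CPM in cycling and 70.8, 78.5, 181 and 71.3 CPM in other myeloid cells, lower in 3 of 4 libraries and not called (adjusted p = 0.053 in edgeR), though it was called in 5 of 10 alternatives: in DESeq2 (0.0167), and in edgeR without the filter on low counts (2.34e-08), with at least 3 cycling genes (0.0295), with thinned cells (0.00197) and without shNC 2 (-0.60, adjusted p = 0.0197). The highest was 0.175. Without shNC 2, and within macrophage-gated cells alone, 3 members were called. Of the listed genes Btg2 was lower in cycling myeloid cells, at a log2 fold change of -0.47, and 6 of 11 quiescence genes and 10 of 14 immediate early genes were called lower and 0 higher.

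Tumor-gated cells gave no call: 0 of the 8 members tested passed in edgeR, against 3.55% of 6989 genes, and 0 were called by DESeq2. The unadjusted p in edgeR was under 0.05 for 3 members and 1087 genes. Dusp1 was lower in cycling tumor-gated cells of each library, at 698, 891, 376 and 595 CPM against 957, 1065, 502 and 706 CPM. Klf2 was at 143, 114, 153 and 224 CPM in cycling and 126, 161, 258 and 414 CPM in other tumor-gated cells, lower in 3 of 4 libraries. Whether the cycling difference is larger in lymphoid than in tumor cells was not tested.

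The CD11b experiment has 1 library a group, so its ratios carry counting error only and no test between groups. Klf2 in macrophage-gated cells (1505 and 1804 cells) was at 126 CPM in shNC and 24.7 CPM in shSELP, a ratio of 0.196 with an exact 95% interval from 0.165 to 0.232. In microglia-gated cells (192 and 166 cells) it was at 484 and 193 CPM, a ratio of 0.398 (0.335 to 0.470). Klf2 in the mix overlapped between groups in both gates, so the drop was seen in 1 library of 1 experiment.

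Tsc22d3 in CD11b macrophages was at 64.0 CPM in shNC and 21.5 CPM in shSELP (ratio 0.335, interval 0.276 to 0.406), and Cebpb at 1540 and 581 CPM (0.377, 0.364 to 0.391). Dusp1 was at 1074 and 688 CPM, Zfp36 at 675 and 408 CPM and Per1 at 92.4 and 60.0 CPM, ratios of 0.640, 0.604 and 0.649. Klf4 at 164 and 156 CPM and Klf6 at 863 and 818 CPM were nearly level, and Fkbp5 at 27.6 and 41.3 CPM was the member that was higher in shSELP, with a ratio of 1.49 (1.23 to 1.81). In macrophages 6 of 9 members were past a fold of 1.5, each lower, against 12.7% of 7193 genes with at least 100 UMIs (723 higher and 191 lower). The median ratio of the members was 0.640, beside 1.07 over those genes. Over the alternatives the macrophage ratio of Dusp1 reached 0.670, inside the fold of 1.5, and that of Fkbp5 reached 1.69, above it.

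**Figure D4:**
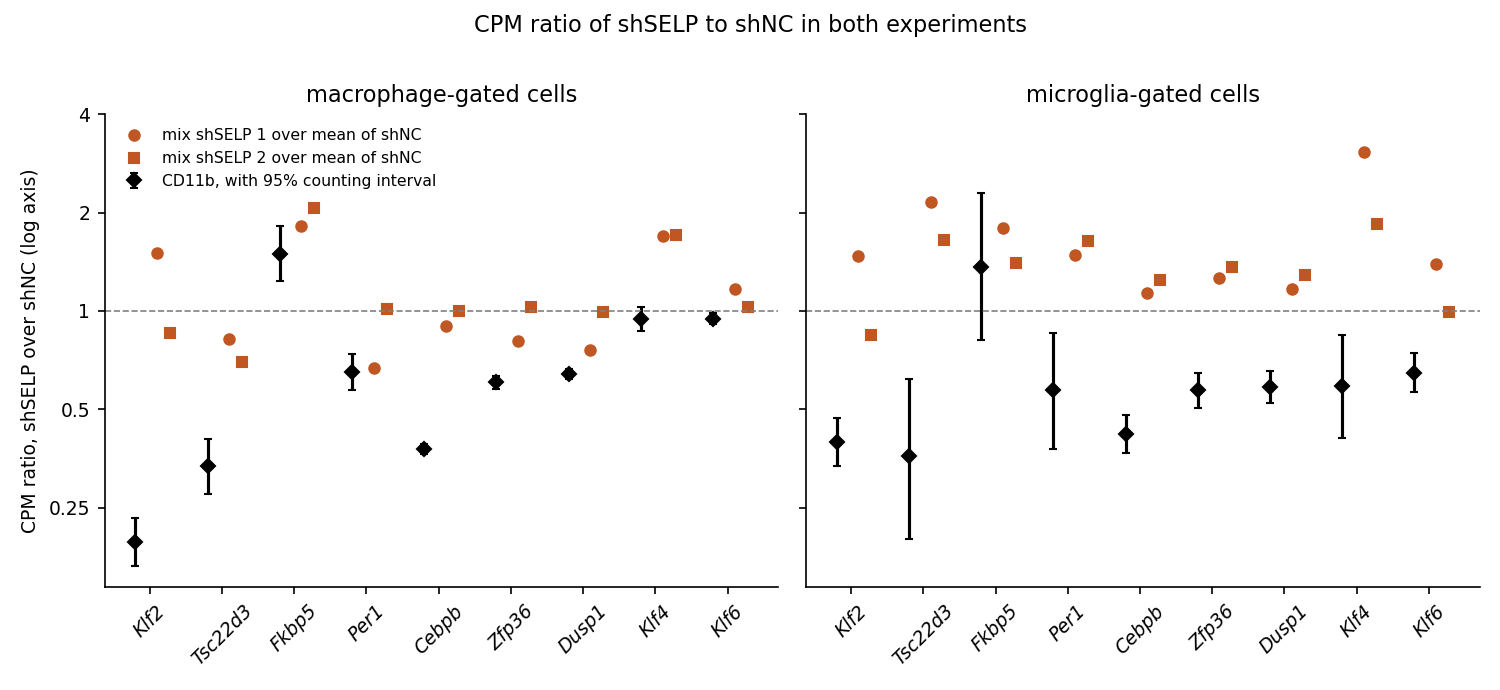
CPM ratio of shSELP to shNC (log axis) for each of the 9 genes in macrophage-gated and microglia-gated cells, with the CD11b libraries as black diamonds with exact 95% counting intervals and the 2 shSELP libraries of the mix, each over the mean of both shNC libraries, in orange. Klf2, Tsc22d3 and Cebpb lie at 0.196, 0.335 and 0.377 in CD11b macrophages, and Fkbp5 lies above 1 in both experiments.

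In CD11b microglia Cebpb was at 728 and 306 CPM (ratio 0.421, interval 0.368 to 0.481), Zfp36 at 702 and 401 CPM (0.571) and Dusp1 at 811 and 473 CPM (0.583). Of the members with at least 100 UMIs 7 of 7 were past the fold, each lower, against 9.87% of 2533 genes (147 higher and 103 lower). With thinned cells 4 members were past it. Tsc22d3 and Fkbp5 were under 100 UMIs. Tsc22d3 there was at 51.7 and 18.6 CPM (62 and 18 UMIs, ratio 0.361, interval 0.201 to 0.617), opposite to its direction in the microglia of the mix and at a ratio of 0.233 with thinned cells, and Fkbp5 at 25.8 and 35.2 CPM (1.36, 0.812 to 2.29). In all CD11b myeloid-gated cells (2654 and 2722 cells) 6 of 9 members were past the fold, each lower, against 10.3% of 8497 genes, of which 684 were higher and 188 lower. There Klf2 was at 172 and 46.5 CPM, Tsc22d3 at 68.5 and 23.3 CPM and Cebpb at 1283 and 517 CPM, and Klf4, Klf6 and Fkbp5 stayed within the fold. The immediate early genes summed to 6283 CPM in shNC and 4511 in shSELP, all 14 with Junb on top, with 1 past the fold higher and 4 lower and a median ratio of 0.705, so they moved with the members, and their part was not tested. The 8 microglia markers summed to 1095 and 1103 CPM in those cells and the 8 macrophage markers to 3642 and 4194 CPM, while microglia-gated cells were 7.03% and 5.92% and macrophage-gated cells 55.1% and 64.3% of kept cells, and the part of this shift in the members' values was not tested.

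The promoters of the 9 genes were read for glucocorticoid and cyclic AMP response elements and for E-box, GC box, TATA and MEF2 motifs. The windows were the 250 bases before 12 annotated starts of these genes and before all 32851 starts of the mouse annotation. The palindromic glucocorticoid response element was in 0 of the 12 member windows and in 0.00913% of all windows, and its half-site AGAACA in 1 of 12, at 185 to 180 bases before a start of Tsc22d3, and in 16.1% of all. The cyclic AMP response element TGACGTCA was in the window of Dusp1 alone, 143 to 136 bases before the start, and in 1.55% of all windows. Its half-site TGACG was in 7 of 12 and 17.8%, the E-box CACGTG in 5 of 12 and 6.02%, the GC box GGGCGG in 11 of 12 and 32.7%, and the TATA motif TATAAA in 0 of 12 and 12.4%. A site for MEF2, whose letters were picked after the sequence of Klf2 was seen, lay 118 to 109 bases before the start of Klf2 and in 0.0396% of all windows. G and C made up from 49.2% (Tsc22d3) to 81.6% (Cebpb) of a member window, beside a median of 52.4% over all windows. The part of base composition in these motif counts was not tested. These windows do not reach distal elements, and no binding was measured.

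The window of Klf2, on the plus strand of chromosome 8 from 72318812 to 72319061 (GRCm38.p6), reads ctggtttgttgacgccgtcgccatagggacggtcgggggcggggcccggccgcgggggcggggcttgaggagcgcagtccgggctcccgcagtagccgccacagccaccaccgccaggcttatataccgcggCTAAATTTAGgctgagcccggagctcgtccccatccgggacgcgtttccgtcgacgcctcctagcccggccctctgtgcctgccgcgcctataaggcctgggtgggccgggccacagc, with the MEF2 site in capitals. The window of Dusp1, on the minus strand of chromosome 17 from 26508473 to 26508722, reads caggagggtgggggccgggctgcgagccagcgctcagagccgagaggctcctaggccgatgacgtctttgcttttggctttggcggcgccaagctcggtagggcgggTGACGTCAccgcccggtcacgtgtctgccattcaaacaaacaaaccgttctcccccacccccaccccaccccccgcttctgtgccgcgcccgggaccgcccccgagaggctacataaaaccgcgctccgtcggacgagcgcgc, with the cyclic AMP response element in capitals.

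The values of these 9 genes are limited by 2 libraries a group in the mix and 1 in the CD11b experiment, by libraries not stated to come from separate pools, and by gates of as few as 23 vascular and 53 tumor cells. Day and sorting cannot be told apart between the experiments. Klf2, Dusp1, Zfp36, Klf4 and Klf6 can change during dissociation, and no library without dissociation was available. With 2 libraries a group, both libraries of a group can lie above or below both others without any effect. The share of all genes that did so was not counted in any gate. Gated cells may hold RNA from other cells. No hormone was measured, so levels of Tsc22d3, Fkbp5 and Per1 do not report glucocorticoid exposure.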

How the data were processed

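Single-cell RNA-seq of GL261 gliomas was read from the 2 deposited tables, whose values are UMI counts per gene and cell that the authors made with Cell Ranger 1.3 on mm10. The labels give kit version 2 and the methods version 3. Python 3.11.15 (numpy 2.4.6, scipy 1.17.1, pandas 2.3.3, matplotlib 3.10.9) and R 4.3.3 were used. Every column matched a library by its prefix. Barcodes shared between mix libraries numbered 0 to 3 a pair, and 3 between the CD11b libraries. No doublet caller was run: 250, 206, 170 and 211 mix cells had at least 3 markers of 2 classes, of which 189, 164, 126 and 180 were gated, and 4 and 13 CD11b cells, of which 3 and 11 were gated.

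UMIs of gated cells were summed per library and tested with edgeR 4.0.16 (quasi-likelihood F test, filterByExpr, TMM) with Benjamini-Hochberg adjustment over all genes tested, at an adjusted p under 0.05, for gates of at least 20 cells in each library. The SE of an edgeR log2 fold change was its absolute value over the square root of F, and is not the spread between libraries. The tests were tested on simulated data. CD11b ratios have exact conditional binomial 95% intervals, and a gene was past the fold at 1.5 with at least 100 UMIs. Likeness was the Pearson r of log2 of CPM plus 10.

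Members and lists were chosen with earlier results of these data known. Named genes are the 9 members, at most 4 called genes per list and comparison with the largest change among those whose libraries did not overlap, and the 3 genes most like each member. Genes named as the most abundant of a list were chosen after their values were seen. Alternatives were DESeq2 1.42.0, no filter on low counts, a gate margin of 3, cells thinned to 2000 UMIs, all deposited cells, at least 3 cycling genes, no library block, replicate number as a block, TMM for CD11b and leaving out each library. Crossed numbers as a block, T-gated or macrophage-gated cells alone and library totals without TMM were added after seeing the data. Promoter windows are from RefSeq starts on GRCm38.p6. Values of 2 listed genes are not reported here.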

Additional observations from a re-analysis of the deposited data

Results flagged for a closer look

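The response of Tsc22d3 to the hairpin differed between microglia-gated and macrophage-gated cells by 1.23 on the log2 scale, in a test of that difference. The call was lost without shNC 2 (adjusted p = 0.56 in edgeR) and with thinned cells (0.48), and DESeq2 gave no adjusted p (NA), with a range from 9.34e-06 to 0.56 over the alternatives. In the CD11b experiment Tsc22d3 was lower in shSELP in both gates, at ratios of 0.361 (0.201 to 0.617) in microglia and 0.335 (0.276 to 0.406) in macrophages, or 0.233 and 0.351 with thinned cells.

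Other genes lay in opposite directions in every library of 2 classes, and these differences were not tested. Of their log2 fold changes given here only that of Zfp36 in tumor-gated cells passed the threshold in edgeR (adjusted p = 0.00951). Cebpb was at 0.34 in lymphoid-gated and -0.40 in vascular-gated cells (log2 fold change, shSELP against shNC). Dusp1 was at 0.45 in vascular-gated, -0.14 in myeloid-gated and -0.74 in tumor-gated cells, and Per1 at 0.47 in vascular-gated and -0.59 in tumor-gated cells. On leaving out each library Dusp1 ran from 0.19 (without shNC 1) to 0.81 (without shNC 2) in vascular-gated cells and reversed to 0.02 in myeloid-gated cells without shSELP 1, and Per1 in vascular-gated cells ran from 0.16 (without shNC 1) to 1.05 (without shNC 2). Zfp36 was at 0.46 in vascular-gated and -1.0 in tumor-gated cells, and Klf6 at 0.16 in myeloid-gated, 0.32 in vascular-gated and -0.88 in tumor-gated cells. On leaving out each library Klf6 ran from 0.18 (without shNC 1) to 0.50 (without shNC 2) and Cebpb from -0.48 (without shSELP 2) to -0.25 (without shSELP 1) in vascular-gated cells.

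In microglia-gated cells Cebpb, Dusp1, Per1, Zfp36 and Klf4 were lower in the CD11b shSELP library, at ratios of 0.421, 0.583, 0.574, 0.571 and 0.590 (Klf4 at 0.372 with thinned cells), while both shSELP libraries of the mix were above both shNC libraries. That difference between experiments was not tested.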

How the results depend on the processing

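Single members were followed under alternatives only if flagged above or at an unadjusted p under 0.05 in the main edgeR fit. Of these log2 fold changes 904 kept direction and side of the threshold, 67 came past it, 49 fell short of it and 4 reversed. Members with weaker main values, which could reverse more easily, are not in this tally. Dusp1 in myeloid-gated cells (shSELP against shNC) was at 0.02 without shSELP replicate 1, and ranged from -0.34 to 0.02 on leaving out each library. With library totals in place of TMM, chosen after seeing the data, Klf6 was at -0.21 between myeloid and vascular cells, and Tsc22d3 at -0.04 and Dusp1 at -0.06 between myeloid and tumor cells. That setting gave 6 members called between myeloid and lymphoid (8 with TMM), 8 between myeloid and vascular (9), 8 between lymphoid and vascular (9) and 5 between myeloid and tumor cells (8), 2 for shSELP against shNC in tumor-gated cells (1 with TMM) and 0 in macrophage-gated cells (1 with TMM). The cause was not tested.

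For shSELP against shNC, DESeq2 called 2 members in myeloid-gated, 1 in vascular-gated, 2 in tumor-gated and 2 in macrophage-gated cells, and 0 for the difference between microglia and macrophages. Without the filter on low counts 2, 1, 3, 4, 2 and 2 members were called in myeloid, lymphoid, vascular, tumor, microglia and macrophage cells, and 2 in each test of a difference. A gate margin of 3 gave 1 in microglia and 2 in macrophages. Thinned cells gave 2 in tumor, 1 in T, 1 for the difference between lymphoid and myeloid cells, 0 for that between microglia and macrophages, and 4 past the fold in CD11b microglia. Cycling within macrophage-gated cells alone gave 3.

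Leaving out each library in turn gave 0 to 3 members in myeloid, 0 to 1 in lymphoid, 0 to 4 in tumor, 0 to 3 in microglia, 0 to 2 in macrophage and 0 to 1 in T cells, 3 to 7 for cycling in myeloid cells, and 0 to 1 and 0 to 3 for the differences of lymphoid from myeloid cells and of microglia from macrophages. The group left with 1 library is assumed to vary like the other.

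With replicate number as a block 0 members were called in myeloid, 0 in lymphoid, 1 in vascular, 4 in tumor, 2 in microglia, 2 in macrophage and 0 in T cells. Across genes, the deviations of the same-numbered libraries from their group means correlated at r of -0.112, 0.0133, 0.116, -0.00374, 0.0832, -0.149 and 0.0418 in that order. Crossed numbers as a block, added after seeing the data, gave 2 members in macrophages and 0 in myeloid cells.

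Counts over all genes moved more, given as edgeR, DESeq2, the range on leaving out a library and the range over the other alternatives. They were 0, 61, 1 to 323 and 0 to 113 in myeloid, 8, 32, 124 to 479 and 1 to 349 in lymphoid, 4, 58, 0 to 101 and 4 to 449 in vascular, and 318, 252, 75 to 782 and 88 to 1092 in tumor cells. They were 30, 44, 72 to 453 and 12 to 360 in microglia, 24, 79, 17 to 64 and 8 to 524 in macrophages, and 4, 17, 0 to 298 and 1 to 17 in T cells. For cycling they were 1131, 607, 414 to 1190 and 375 to 1841 in myeloid, 2736, 1479, 2036 to 2449 and 962 to 3003 in lymphoid, and 248, 168, 102 to 263 and 168 to 730 in tumor cells. For the differences they were 2, 2, 3 to 115 and 2 to 146, and 56, 52, 7 to 228 and 24 to 234. Between myeloid and tumor cells and between lymphoid and tumor cells the counts were 8576 and 8194, with 4925 and 4618 as the lowest. In CD11b microglia 250 genes were past the fold, and 90 with thinned cells. Thinned vascular comparisons, and thinned or 3-gene cycling in tumor cells, were not run because a library held under 20 cells.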
